A study of Mus musculus with 8 samples.

Results

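The comparison described here asks of each gene whether its response to rosiglitazone depended on the shRNA the cells carried. For every gene the rosiglitazone response in sh-scr cells (treated minus untreated, log2) was subtracted from the same response in sh-PRDM16 cells. This difference in response is above 0 where the drug acted more positively in sh-PRDM16 cells and below 0 where it acted more negatively. It takes in 8 of the 8 arrays of the study. RNA came from adipocytes grown out of SV cells, the stromal-vascular fraction, of the inguinal white fat of male C57BL/6J mice. One pair of groups carried sh-scr, the control hairpin, and the other pair carried sh-PRDM16, each either without the drug or with 1 µM rosiglitazone. Each of the 4 groups was measured on 2 Affymetrix mouse 430A_2 arrays. The sample titles call the arrays of a group biological replicates, but the labels do not say which cultures or animals they came from. A p-value therefore covers no more than the spread of these arrays, and what separates the replicates is not stated. The annotation used here pairs no probe set with Prdm16, so the targeted RNA was not analysed here and the identity of both sh-PRDM16 groups comes from the labels.

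Rosiglitazone binds PPARγ, the nuclear receptor that drives fat cell differentiation, and with RXR the receptor activates genes of lipid storage and oxidation. PRDM16 is a zinc finger co-regulator that partners with PPARγ and other factors to switch on brown fat genes such as Ucp1 and Cidea. In white fat depots, prolonged PPARγ activation can induce part of this thermogenic programme, and the cells that take it on are called beige or brite adipocytes.

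The median array intensity was between 100.1 and 135.4, and arrays of the same group correlated at r = 0.991 to 0.993 across probe sets. The array medians themselves held a difference in response of log2 0.31, which the centring of each array on its median removed. All log2 values below are therefore relative to the median probe set of each array, on the scale log2(intensity + 16), and they understate changes of dim genes. Adipocyte markers were strongly expressed in every group: the mean intensity of Fabp4, a fatty acid binding protein, ranged from 17951 to 22265 and that of Adipoq, which encodes adiponectin, from 10480 to 14975. Other adipocyte genes were lower in untreated sh-PRDM16 than in untreated sh-scr cells, with means of 4609 against 10042 for the fatty acid carrier Cd36, 1602 against 3175 for Pparg, 1092 against 2195 for Cebpa, a transcription factor of fat cells, and 501 against 1103 for the lipase gene Lipe. Across all genes 1985 differed between the shRNAs without the drug (21.4%), 815 higher (8.77%) and 1170 lower (12.6%) with sh-PRDM16, and 2287 with it (24.6%), 1138 higher (12.2%) and 1149 lower (12.4%). Of 13 tested markers of macrophages and leukocytes, 11 were lower with sh-PRDM16 without the drug and 12 with it. The summed intensity of 20 measured markers was 10590 to 11060 in untreated sh-scr, 8245 to 8534 in treated sh-scr, 1462 to 1688 in untreated sh-PRDM16 and 1119 to 1251 in treated sh-PRDM16 arrays, and 6 of the 20 (Cd163, Cd3e, Cd4, Cd8a, Itgam and Ms4a1) had a mean below 16. The sums were taken after the centring of each array, unlike the mean intensities above. In bulk RNA such as this, fewer cells of a type and less RNA per cell cannot be told apart.

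The drug response depended detectably on the shRNA for a few genes, led by the brown fat genes Ucp1 and Cidea. Of 9294 genes tested, 5 passed for the difference in response (0.0538%, limma, Benjamini-Hochberg adjusted p under 0.05), 1 with a positive difference (0.0108%) and 4 with a negative one (0.043%). At an unadjusted p under 0.05 the count was 1243 (13.4%), of which 699 were positive (7.52%) and 544 negative (5.85%). Cidea, Ucp1, Lama5 and Arhgap20 had the negative differences and Dgat2 the positive one. The set of calls depended on the scale and on single arrays. On the deposited scale without centring 70 genes passed, 63 of them positive and 7 negative, with the 5 genes among them. Only leaving out untreated sh-scr replicate 1 (3 calls) or replicate 2 (2 calls) left any calls, and leaving out any other array left 0. No gene passed without the filter on dim genes (0, with 1536 at an unadjusted p under 0.05, limma), with a pseudocount of 1 in place of 16 (0, with 1160) or over every probe set (0, with 2672). With the mean of a gene's probe sets 1 gene passed, and with the replicate number as a block 1 gene passed, Cidea.

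Ucp1 encodes the inner-membrane proton carrier that lets brown fat mitochondria release energy as heat. Its intensity was 5.2 and 20.6 in untreated sh-scr arrays, 1295.5 and 1322.0 in treated sh-scr arrays, 4.6 and 3.4 in untreated sh-PRDM16 arrays and 81.9 and 101.0 in treated sh-PRDM16 arrays. The treated sh-scr arrays were far above all others, the treated sh-PRDM16 arrays lay between, and both untreated groups were near the floor. Ucp1 rose by log2 5.87 in sh-scr cells and by log2 2.40 in sh-PRDM16 cells. The difference in response was log2 -3.46 (SE 0.30, 95% interval -4.20 to -2.73, limma adjusted p = 0.0358). Without rosiglitazone the difference between the shRNAs was log2 -0.29, and with it sh-PRDM16 cells were lower by log2 -3.76.

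Since Ucp1 carried the largest difference in response of the genes that passed, the 250 bases before its start are printed, with a match to AGGTCA, the half-site bound by nuclear receptors such as PPARγ and RXR, in capitals. The sequence is from RefSeq (GRCm38.p6, chr8:83290098-83290347, plus strand).
Ucp1 promoter: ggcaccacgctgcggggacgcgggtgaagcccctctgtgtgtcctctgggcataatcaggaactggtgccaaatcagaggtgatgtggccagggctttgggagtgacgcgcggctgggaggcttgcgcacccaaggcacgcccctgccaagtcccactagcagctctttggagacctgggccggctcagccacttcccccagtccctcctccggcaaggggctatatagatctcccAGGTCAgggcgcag
The match begins 14 bases before the start site. AGGTCA was searched on both strands and was found in 13.2% of the 7513 tested genes with a promoter in the table, and in 21.3% of the 197 such genes whose mean response over both shRNAs was a rise of at least log2 1. Among all 1517 genes with a promoter in the table whose mean response rose, the share was 14.2%. Of the 5 genes that passed for the difference in response, 3 had a promoter in the table. Those of Lama5 and Arhgap20 held no match, and Cidea and Dgat2 were not searched. A match is a description of letters and not a bound site.

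Cidea, a protein of lipid droplets found mainly in brown adipocytes, gave 14.0 and 24.2 in untreated sh-scr, 510.5 and 584.6 in treated sh-scr, 2.3 and 1.6 in untreated sh-PRDM16 and 29.8 and 35.1 in treated sh-PRDM16 arrays. As for Ucp1, the treated sh-scr arrays stood apart, and no group overlapped another. Cidea rose by log2 4.31 in sh-scr cells and by log2 1.41 in sh-PRDM16 cells. The difference was log2 -2.90 (SE 0.20, -3.39 to -2.41, limma adjusted p = 0.022). Untreated arrays were near the floor, most of all with sh-PRDM16. The rise with sh-PRDM16 may therefore be understated and the size of the difference overstated. Over the other settings in which Cidea was tested, its difference lay between log2 -3.07 and log2 -1.66.

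In Lama5 and Arhgap20 the sign of the response turned with the shRNA. Lama5 encodes the α5 chain of laminin in basement membranes. Its intensity was 14.9 and 12.6, then 44.7 and 37.3 with the drug in sh-scr arrays, and 41.3 and 44.1, then 7.1 and 15.2 with the drug in sh-PRDM16 arrays. The treated sh-scr and untreated sh-PRDM16 arrays overlapped at the higher level, and the other 2 groups overlapped at the lower one, close to the floor. Lama5 rose by log2 1.23 with sh-scr and fell by 1.15 on the log2 scale with sh-PRDM16 (difference log2 -2.38, SE 0.20, limma adjusted p = 0.0358). Its other, dimmer probe set gave a difference of log2 0.36 (SE 0.74), and the mean of both probe sets gave -1.01 and did not pass. Arhgap20, a GTPase-activating protein, gave 57.4 and 56.4, then 112.0 and 121.0 with the drug in sh-scr arrays, and 128.6 and 103.7, then 84.7 and 87.9 with the drug in sh-PRDM16 arrays. It was lowest in untreated sh-scr cells, and the treated sh-scr and untreated sh-PRDM16 arrays overlapped. It rose by log2 1.16 with sh-scr and fell by 0.38 on the log2 scale with sh-PRDM16, a difference of -1.54 (SE 0.13, limma adjusted p = 0.0358).

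Dgat2 catalyses the last step of triglyceride synthesis. It gave 3113.8 and 3339.3 in untreated sh-scr, 1383.1 and 1328.4 in treated sh-scr, 1819.0 and 1562.3 in untreated sh-PRDM16 and 2114.8 and 2259.8 in treated sh-PRDM16 arrays. The drug took it down in sh-scr cells and up in sh-PRDM16 cells, and none of the 4 groups overlapped. Dgat2 fell by 0.95 on the log2 scale in sh-scr cells and rose by log2 0.35 in sh-PRDM16 cells, a difference of log2 1.30 (SE 0.09, 1.08 to 1.52, limma adjusted p = 0.022). Its other probe set gave log2 1.08 (SE 0.16). Dgat1, the other enzyme of that step, rose by log2 1.25 and log2 1.22 with the 2 shRNAs, and the difference was log2 -0.03 (SE 0.10).

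**Figure D1:**
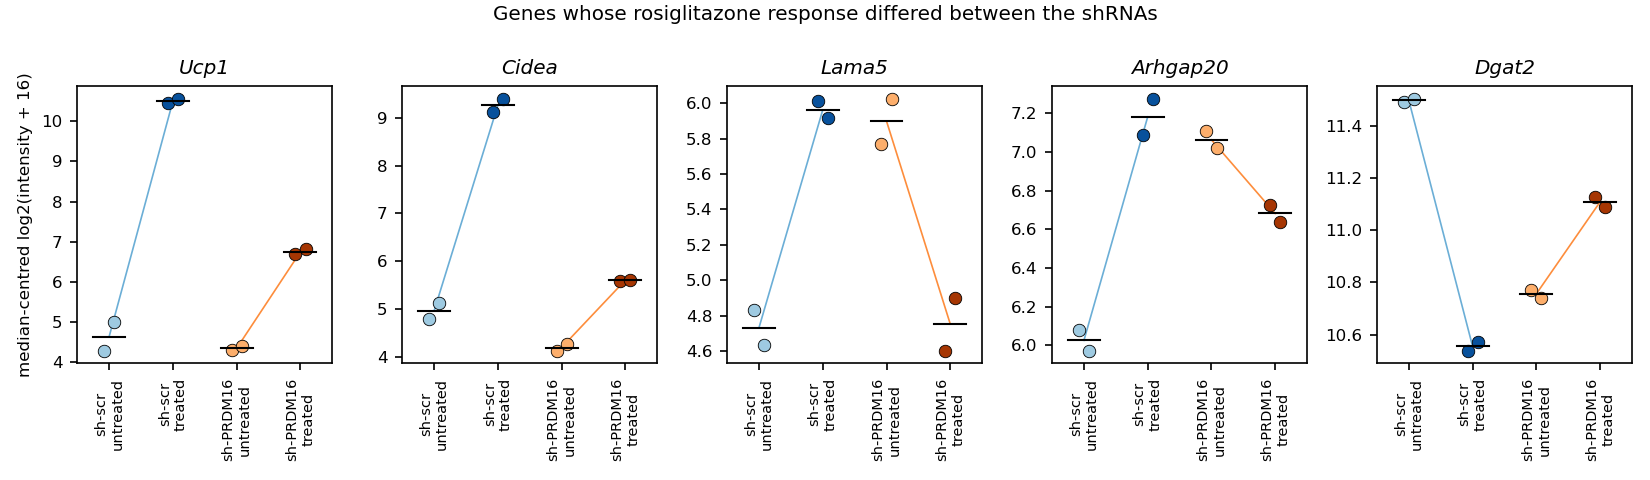
Median-centred log2(intensity + 16) on each of the 8 arrays for Ucp1, Cidea, Lama5, Arhgap20 and Dgat2, with the group on the x axis. Points are arrays, bars are group means and lines join untreated to treated cells of one shRNA, side by side in each panel. Both lines rise for Ucp1 and Cidea, less steeply with sh-PRDM16, and they slope in opposite directions for Lama5, Arhgap20 and Dgat2.

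Most genes that answered the drug had a difference in response whose interval stayed within log2 1 of 0. The mean response over both shRNAs is an orthogonal combination of the same arrays, but its test uses the same spread of each gene as the test of the difference. Genes with a small spread pass for the mean response more easily and also have narrower intervals of the difference, so the shares below are descriptions. For the mean response 3524 genes passed (37.9%), 1824 up (19.6%) and 1700 down (18.3%). Taken one shRNA at a time, 2428 genes passed with sh-scr (26.1%), 1328 up (14.3%) and 1100 down (11.8%), and 2275 with sh-PRDM16 (24.5%), 1354 up (14.6%) and 921 down (9.91%). The split of the mean response between directions depended on the scale, with 51.8% of calls upward here and 29.3% on the deposited scale. Among the 3524 genes, 4 passed for the difference in response (Ucp1, Cidea, Arhgap20 and Dgat2), and 691 (19.6%) had an unadjusted p under 0.05, of which 438 were positive and 253 negative. The 95% interval of the difference lay within log2 -1 to 1 for 3210 of them (91.1%, against 83% of all genes tested), and within -0.5 to 0.5 for 1801 (51.1%, against 41.3%). The median response was log2 0.46 with sh-scr and 0.49 with sh-PRDM16 for the 1824 rises, and -0.37 and -0.35 for the 1700 falls. Both bounds are wider than these responses, so an interval inside them does not show an equal response. Among the 284 genes with a mean response of at least log2 1 in either direction, 190 (66.9%) had an interval within -1 to 1 and 126 (44.4%) an unadjusted p under 0.05. Of these 126 genes, 89 had a positive difference and 37 a negative one. Among the rises, 79 were larger and 36 smaller with sh-PRDM16, and among the falls 1 was larger and 10 were smaller.

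**Figure D2:**
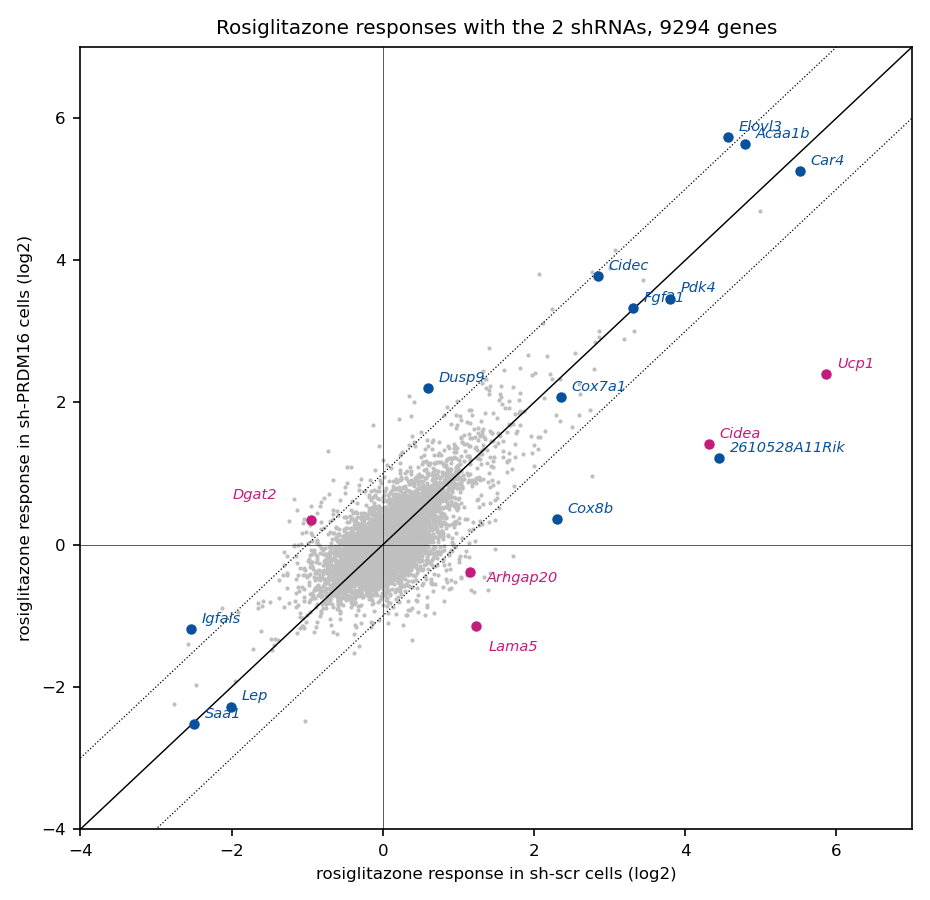
Rosiglitazone response in sh-scr cells (x axis, log2) against that in sh-PRDM16 cells (y axis, log2) for 9294 genes, with the line of equal response and dotted lines at a difference of log2 1. Genes that passed for the difference are pink and other named genes blue; Ucp1 and Cidea lie far below the line, while Car4, Pdk4 and Fgf21 lie near it. Both axes carry noise of their own arrays only, since the responses share none.

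The genes with the largest mean rises whose interval lay within -1 to 1 were led by Car4, Aadac, Pdk4 and Fgf21. They were chosen by that interval, so its width is a description here. Car4, a membrane-bound carbonic anhydrase, went from 33.1 and 48.5 to 2165.9 and 2008.9 in sh-scr arrays and from 57.2 and 33.4 to 2362.1 and 2265.8 in sh-PRDM16 arrays. Treated arrays of both shRNAs reached similar intensities. Car4 rose by log2 5.52 with sh-scr and log2 5.26 with sh-PRDM16, and the difference of log2 -0.26 had a 95% interval of -0.81 to 0.29. Fgf21, a fasting-induced hormone, rose by log2 3.31 and log2 3.33 (difference 0.01, -0.71 to 0.74). Pdk4, the kinase that shuts off pyruvate dehydrogenase, started lower with sh-PRDM16, at 82.7 and 76.1 against 258.3 and 260.1, and reached 1019.7 and 1076.3 against 3201.5 and 3036.4. The arrays of the 2 shRNAs were apart at both doses, but Pdk4 rose by log2 3.80 with sh-scr and log2 3.46 with sh-PRDM16 (difference -0.34, -0.59 to -0.10). Ehhadh, the peroxisomal bifunctional enzyme of fatty acid oxidation, rose by log2 3.18 and log2 2.90 from a level that was lower with sh-PRDM16 by log2 -2.05. Aadac, Cyp4b1, Acacb, Fabp3, Cmbl, Cyp2c70, Rgs17 and Ephx2 made up the rest, with differences between -0.33 and 0.48. Acacb, an acetyl-CoA carboxylase, started at 3.0 and 3.5 in untreated sh-PRDM16 arrays, near the floor, and its difference of 0.15 was 1.80 with a pseudocount of 1 and -0.53 with a pseudocount of 64. The differences of Aadac and Ehhadh also changed sign between those pseudocounts, from 0.39 to -0.67 and from 0.13 to -0.83.

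The largest falls of that kind were those of Saa1 and Lep. Saa1, a serum amyloid gene of the acute phase, went from 323.2 and 308.7 to 31.5 and 32.7 in sh-scr arrays and from 354.6 and 310.7 to 58.0 and 34.4 in sh-PRDM16 arrays. It fell by 2.49 on the log2 scale with sh-scr and fell by 2.53 with sh-PRDM16. Saa2 and Saa4 also fell with both shRNAs, although the serum amyloid genes are close paralogs whose probe sets may share hybridization. Lep, which encodes leptin, fell by 2.01 on the log2 scale with sh-scr and by 2.28 with sh-PRDM16 (difference -0.27, -0.94 to 0.40). Its treated arrays were at 63.7 and 60.7 with sh-scr and at 4.1 and 2.8 with sh-PRDM16, near the floor, and the difference was -1.95 with a pseudocount of 1 and 0.49 with a pseudocount of 64. Apoe, Srgn, Adamts5 and Cp completed the 8 falls, with differences between 0.10 and 0.39.

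Among the thermogenic genes, the dependence on the shRNA was uneven. Of 32 measured, 26 passed the filter on dim genes. In the mean response 20 rose (19.6% of all genes) and 1 fell (18.3%). For the difference in response 2 passed, Ucp1 and Cidea, both negative (0.043% of all genes). At an unadjusted p under 0.05, 3 differences were positive (7.52% of all genes) and 7 negative (5.85%). The sign was positive for 9 of 26, against 53.3% of all genes. The median difference was log2 -0.16 against 0.02 over all genes. On the deposited scale it was 0.15 against 0.33, so the sign of the list median depends on the centring. That scale shifts all genes alike, so it could not change the distance between the list and all genes. Cox8b, a muscle and brown fat subunit of cytochrome c oxidase, gave 102.8 and 92.5, then 468.9 and 418.6 with the drug in sh-scr arrays, and 5.2 and 20.5, then 16.4 and 24.3 in sh-PRDM16 arrays. The arrays of both sh-PRDM16 groups overlapped near the floor, so a response there may be understated. Cox8b rose by log2 2.31 with sh-scr and its response with sh-PRDM16 was log2 0.36 (limma adjusted p = 0.425). The difference of log2 -1.95 (-2.95 to -0.95) did not pass (limma adjusted p = 0.134).

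Other thermogenic genes lay on either side. Dio2, which activates thyroid hormone, rose by log2 0.79 with sh-scr and gave log2 -0.21 with sh-PRDM16 (difference -0.998, limma adjusted p = 0.0864). Its 2 dimmer probe sets gave differences of -0.25 and -0.36. Cox7a1, also a cytochrome c oxidase subunit of muscle and brown fat, rose by log2 2.35 and log2 2.07 (difference -0.28, -0.85 to 0.29). The co-activator Ppargc1a rose by log2 1.75 and log2 1.24, and its difference of -0.51 (-0.92 to -0.11) did not pass. The dimmer probe sets of Ppargc1a gave -0.24, -0.82, -1.08 and -0.92. Elovl3, an elongase of very long chain fatty acids, rose by more with sh-PRDM16, log2 5.73 against log2 4.57, and the difference of 1.16 (0.65 to 1.67) did not pass either (limma adjusted p = 0.104). Its level stayed lower with sh-PRDM16 in both conditions, at 39.0 and 46.9 against 206.2 and 269.4 untreated and 2924.7 and 3397.5 against 4861.9 and 4855.4 treated.

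**Figure D3:**
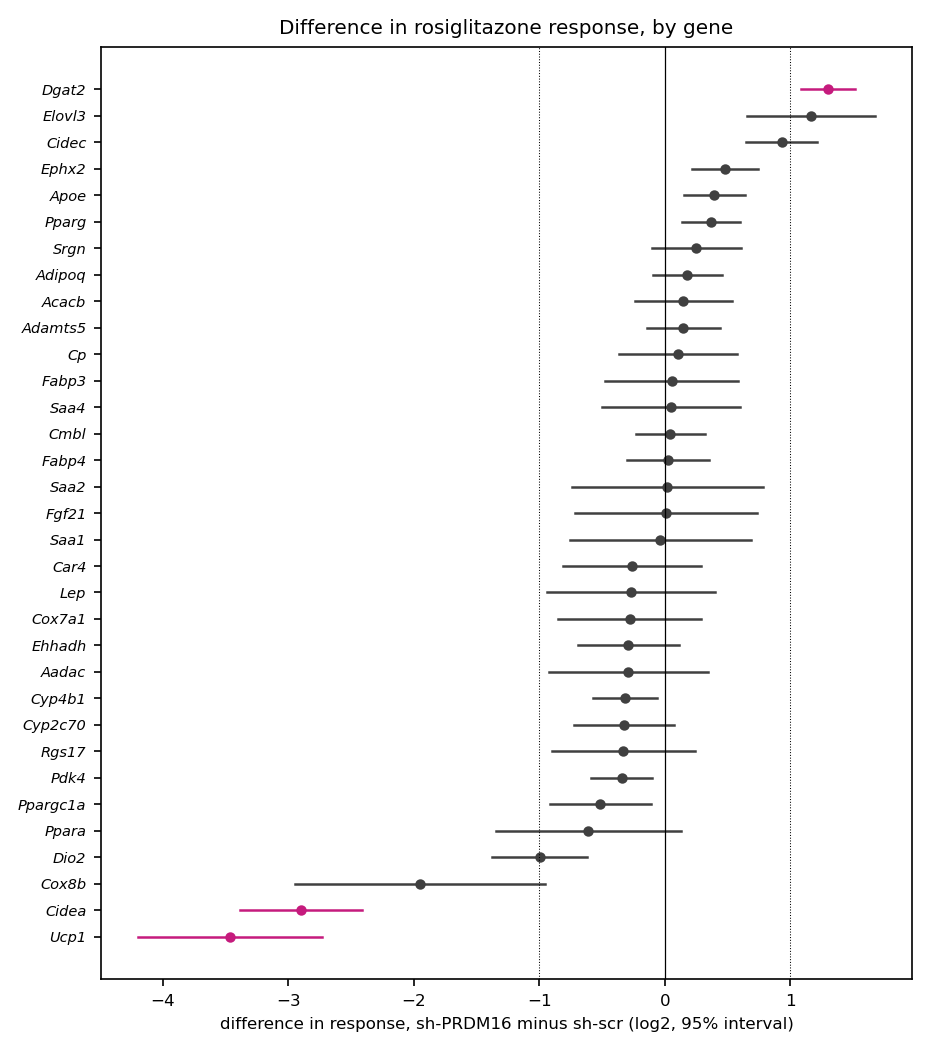
Difference in rosiglitazone response, sh-PRDM16 minus sh-scr (x axis, log2), with its 95% interval for fixed thermogenic and adipocyte genes and for the genes with the largest mean responses whose interval lay within -1 to 1. Genes that passed after adjustment are pink; Ucp1 and Cidea lie at -3.46 and -2.90 and most others between the dotted lines at -1 and 1.

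Dgat2 was the one gene of lipid storage that passed with a positive difference, and the lists of lipid storage differed in their signs. Of 18 tested genes of triglyceride synthesis and glyceroneogenesis, 1 passed (0.0538% of all genes), and 10 had a positive sign (53.3%). At an unadjusted p under 0.05, 2 were positive (7.52%) and 2 negative (5.85%), and the median was log2 0.02, as over all genes. In that list Gpd1 had a difference of log2 0.82, and its dimmer probe sets gave 0.26, -0.14 and -0.58. Gpd2, the mitochondrial glycerol-3-phosphate dehydrogenase, had a difference of log2 -0.75 and Pck1, the gluconeogenic carboxykinase, of log2 -0.63. Neither Gpd1, Gpd2 nor Pck1 passed. Of 16 tested genes of the lipid droplet and lipolysis, 14 rose in the mean response (19.6% of all genes). The difference was positive with an unadjusted p under 0.05 for 8 (7.52%) and negative for 2 (5.85%). The sign was positive for 10 of 16, against 53.3% of all genes, and the median was log2 0.32, against 0.02. Cidea is a member of this list and lay farthest from the median. Cidec, a relative of Cidea that enlarges lipid droplets, went from 906.1 and 993.6 to 5565.0 and 5696.6 in sh-scr arrays and from 234.5 and 221.7 to 3103.6 and 3647.6 in sh-PRDM16 arrays. The sh-PRDM16 arrays were below the sh-scr arrays in both conditions, and more so without the drug. Cidec rose by log2 2.84 and log2 3.77, and the difference of 0.93 (0.65 to 1.21) did not pass (limma adjusted p = 0.0656). Pnpla2, the first lipase of triglyceride breakdown, rose by log2 1.19 and log2 1.83, and Mgll, the lipase of the last step, by log2 1.16 and log2 1.72. The difference of Pnpla2 was 0.64, and its dimmer probe set gave -0.07.

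Among 22 lipogenesis genes, 11 had a positive difference at an unadjusted p under 0.05 (7.52% of all genes) and 0 a negative one (5.85%), with a median of log2 0.29 against 0.02 and 0 calls after adjustment. Fasn, fatty acid synthase, went from 6712.3 and 7176.3 to 4470.1 and 4517.3 in sh-scr arrays and from 2935.4 and 2443.4 to 3136.5 and 3614.0 in sh-PRDM16 arrays. The shRNA groups were apart by less with the drug than without it. Fasn fell by 0.33 on the log2 scale with sh-scr and rose by log2 0.31 with sh-PRDM16 (difference 0.64, limma adjusted p = 0.088). Srebf1, a transcription factor of lipogenic genes, gave log2 0.14 with sh-scr and rose by log2 0.78 with sh-PRDM16. The median of the 22 genes was lower with sh-PRDM16 by log2 -0.68 without the drug and by log2 -0.21 with it, 2 values that share arrays with the difference in response. Of 21 general adipocyte genes, 8 had a positive difference at an unadjusted p under 0.05 (7.52% of all genes) and 0 a negative one (5.85%), with a median of 0.28 against 0.02. Their summed intensity, taken after the centring of each array, was 110100 to 115200 in untreated sh-scr, 135200 to 149000 in treated sh-scr, 85510 to 86700 in untreated sh-PRDM16 and 118800 to 120300 in treated sh-PRDM16 arrays. The rise in sh-scr arrays depends on that centring. On the deposited scale the means of Fabp4, Adipoq, Pparg and Cebpa were lower with the drug in sh-scr cells, and those of Cd36 and Lipe were higher. The part of this marker level in the differences of lipid genes was not tested.

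Oxidative genes rose with the drug, and for most of them the interval of the difference between the shRNAs lay within log2 -1 to 1. The median of their mean response was log2 0.58 for respiratory chain, 1.02 for fatty acid oxidation and 0.70 for TCA cycle and pyruvate entry genes. An interval within -1 to 1 therefore does not show an equal response. Of 68 respiratory chain genes, 65 rose in the mean response (19.6% of all genes), and for 66 the interval of the difference lay within -1 to 1 (83%) and for 61 within -0.5 to 0.5 (41.3%). Their median difference was log2 0.02, as over all genes, and Cox8b was the member farthest from it. Of 34 fatty acid oxidation genes, 30 rose, 31 had an interval within -1 to 1 and 19 within -0.5 to 0.5. The difference was positive for 8 (7.52% of all genes) and negative for 0 (5.85%) at an unadjusted p under 0.05, with a median of 0.13. Abcd2, a peroxisomal carrier of very long chain fatty acids, rose by log2 0.50 and log2 1.58 (difference 1.08, limma adjusted p = 0.0613). All 27 tested genes of the TCA cycle and pyruvate entry had an interval within -1 to 1, 19 had one within -0.5 to 0.5, and 24 of the 27 rose.

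Of 35 tested PPAR target genes, 32 rose in the mean response (19.6% of all genes), and 2 passed for a negative difference, Ucp1 and Cidea (0.043%). At an unadjusted p under 0.05, 12 differences were positive (7.52%) and 3 negative (5.85%), with a median of 0.18 against 0.02. Acot3, an acyl-CoA thioesterase, rose by log2 2.07 and log2 3.81, and Gys2, a glycogen synthase, by log2 2.77 and log2 3.84. The thioesterases Acot1 and Acot3 are close paralogs, so the signal of their probe sets may be shared. Among 27 receptors and co-regulators 0 passed, with 8 positive and 2 negative at an unadjusted p under 0.05. Pparg itself gave log2 -0.10 with sh-scr and rose by log2 0.27 with sh-PRDM16 (difference 0.37, 0.14 to 0.60, limma adjusted p = 0.192). Rxrg, a partner receptor, gave log2 0.41 with sh-scr and rose by log2 2.01 with sh-PRDM16 (difference 1.60, limma adjusted p = 0.227), but its arrays within a group were far apart, at 142.7 and 69.1 in treated sh-scr cells.

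**Figure D4:**
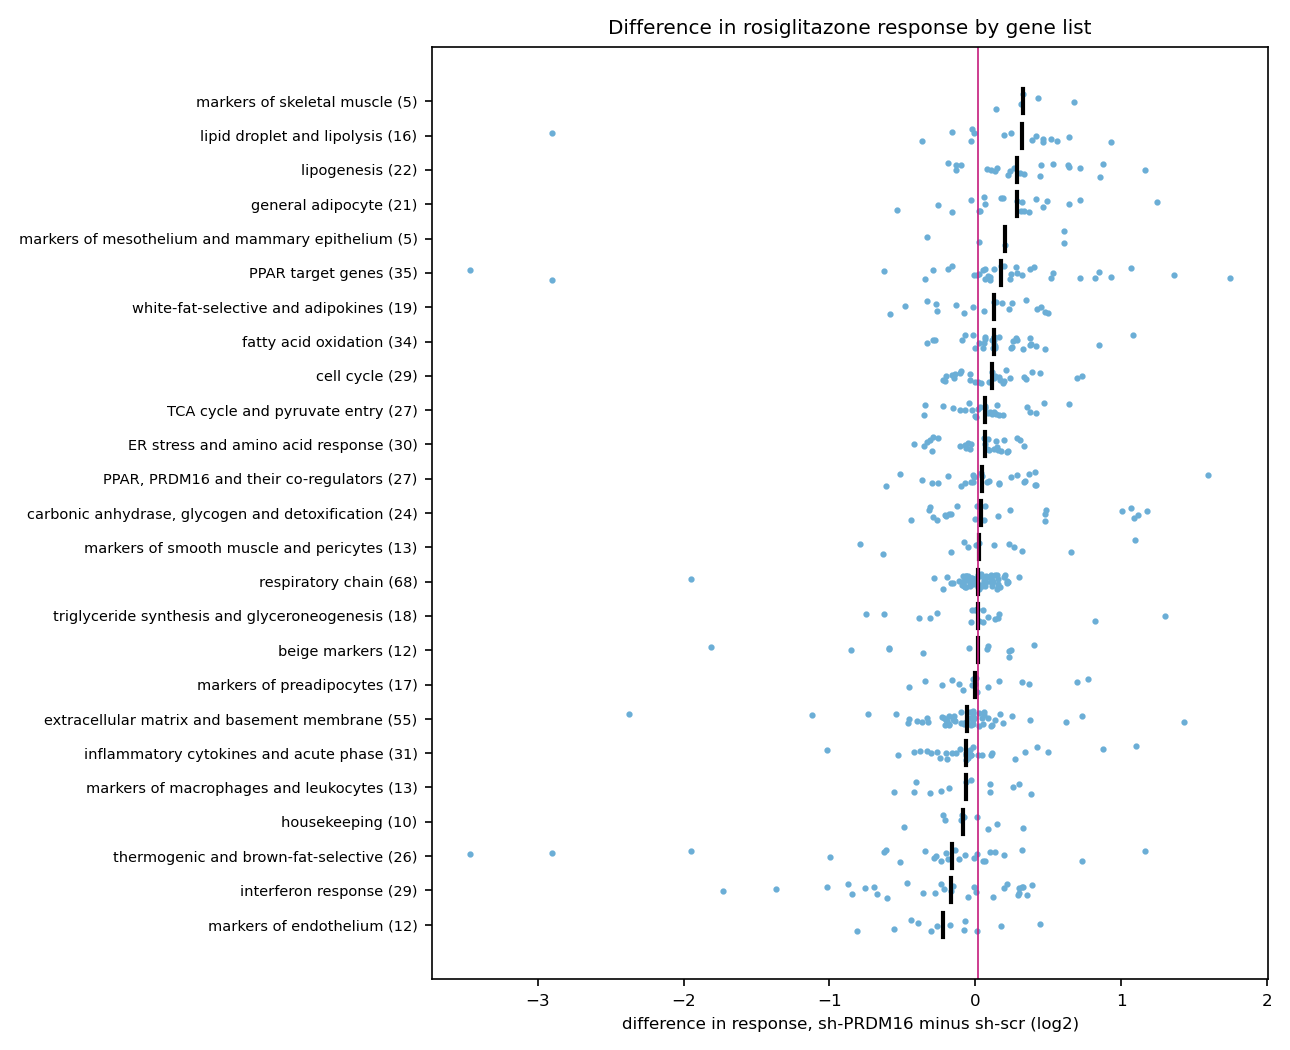
Difference in rosiglitazone response (x axis, log2) of each tested member of 25 gene lists, with the number of members in brackets. Points are genes, black bars are list medians and the pink line is the median of all genes; lipid droplet and lipogenesis medians lie near 0.3, and the thermogenic list holds the outlying Ucp1 and Cidea.

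Beyond the 5 genes that passed, those with the smallest p among differences of at least log2 1 in each direction had limma adjusted p up to 0.0821 on the positive side and up to 0.0936 on the negative side. On the positive side, Wnk4, a kinase that controls ion transport, fell by 1.24 on the log2 scale with sh-scr, and its response with sh-PRDM16 was log2 0.33. Dusp9, a phosphatase of MAP kinases, went from 38.3 and 43.5 to 55.9 and 52.2 in sh-scr arrays and from 61.9 and 36.9 to 258.7 and 310.3 in sh-PRDM16 arrays. Only the treated sh-PRDM16 arrays were high. Apolipoprotein gene Apoc4 had the same shape, from 32.0 and 30.3 to 184.3 and 189.5 with sh-PRDM16, against 43.6 and 31.9 to 44.5 and 35.1 with sh-scr. Igfals, the acid-labile subunit of the IGF carrier complex, ended near the floor in both treated groups, and untreated it was lower with sh-PRDM16, at 26.8 and 30.8 against 120.7 and 110.7 (difference in response 1.35). Abcd2, Slc1a3, Mtarc1, Scgn, Rdh12, Orm1 and Rab38 made up the rest.

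On the negative side, 2610528A11Rik went from 22.4 and 3.1 to 428.1 and 506.7 in sh-scr arrays and from 27.3 and 21.9 to 73.6 and 85.0 in sh-PRDM16 arrays. It rose by log2 4.45 and log2 1.21, and the difference of -3.23 (-4.35 to -2.11) did not pass (limma adjusted p = 0.0849). Tnfrsf9, a TNF receptor family member used as a beige marker, rose by log2 1.42 with sh-scr and gave log2 -0.39 with sh-PRDM16, at intensities of at most 53.0. Of 12 tested beige markers, 6 had a positive sign (53.3% of all genes), and their median difference was log2 0.02, as over all genes. At an unadjusted p under 0.05, 1 was positive (7.52%) and 3 were negative (5.85%), and 0 passed after adjustment (0.0538%). Fgl1, a fibrinogen-like secreted protein, was at 341.0 to 373.5 in all sh-scr arrays, and with sh-PRDM16 at 122.7 and 96.5 untreated and at a mean of 56.2 treated. Mapk13, Adgrb1, Cda, Celsr2 and Kif17 made up the rest.

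**Figure D5:**
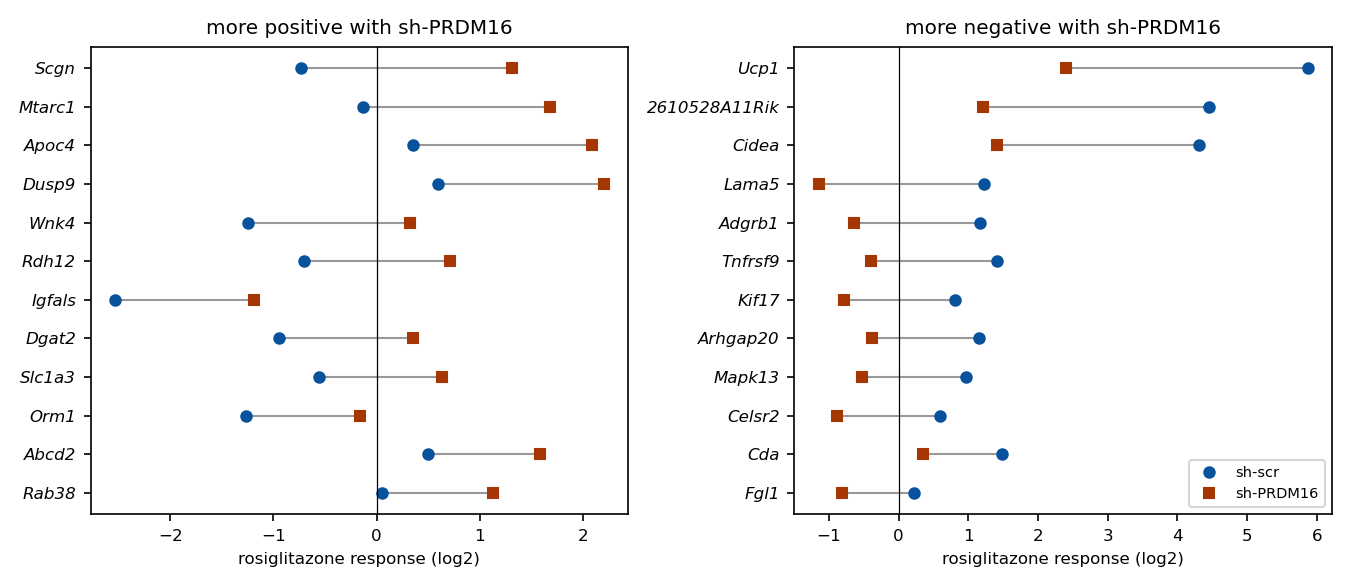
Rosiglitazone response (x axis, log2) in sh-scr cells (circles) and sh-PRDM16 cells (squares) for the 12 genes with the smallest p among differences of at least log2 1, in each direction. Dgat2, Ucp1, Cidea, Lama5 and Arhgap20 passed after adjustment; Ucp1, Cidea and 2610528A11Rik span the widest gaps.

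Markers of other cell types gave no call for the difference in response, where 0.0538% of all genes passed. At an unadjusted p under 0.05, smooth muscle and pericyte markers had 3 positive (7.52% of all genes) and 2 negative (5.85%) of 13. Endothelial markers had 0 positive and 2 negative of 12, and preadipocyte markers 2 positive and 0 negative of 17. Skeletal muscle markers had 1 positive and 0 negative of 5, as had markers of mesothelium and mammary epithelium. The median difference was log2 -0.22 for endothelial, -0.07 for macrophage and leukocyte, -0.0022 for preadipocyte and 0.03 for smooth muscle and pericyte markers. It was 0.20 for mesothelium and mammary epithelium and 0.33 for skeletal muscle markers, against 0.02 over all genes. Of 13 tested macrophage and leukocyte markers, 0 passed and 0 had an unadjusted p under 0.05 (13.4% of all genes). Their interval lay within -1 to 1 for 9 (83% of all genes). Lyz2, a macrophage lysozyme, averaged 3228.0, then 1772.1 with the drug in sh-scr cells and 235.0, then 130.0 in sh-PRDM16 cells, and it fell with both shRNAs (difference log2 -0.24, -0.56 to 0.09). The part of these cells in the differences above was not tested. Of 29 interferon response genes, 0 passed, and the median difference was log2 -0.17. The interval lay within -1 to 1 for 14 of the 29 (83% of all genes), and 1 array stood apart. Ifit1, an interferon-induced RNA-binding protein, was 1550.3 in untreated sh-PRDM16 replicate 2 and between 184.9 and 489.0 on the other arrays. Its difference was log2 -1.73 (SE 1.26) with that array and -0.17 (SE 0.25) without it. Rsad2, an antiviral enzyme, went likewise from -1.36 to -0.11.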

How the data were processed

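The authors deposited one table of linear intensity values for 22690 probe sets on 8 arrays. Per the labels' protocols, Trizol RNA was copied and transcribed into biotinylated cRNA. How probe sets were summarized and arrays scaled is not given in the sources used here. Gene names came from the platform annotation (20380 probe sets with 1 gene, 691 with several, 1555 not listed, 64 controls), and 12369 of 12393 genes matched RefSeq. Values were taken as log2(intensity + 16) minus each array's median over non-control probe sets. Each gene was its brightest probe set, and the dimmest 25% of genes were left out. One limma 3.58.1 fit (R 4.3.3, lmFit and eBayes, 4 residual degrees of freedom, prior 2.29) covered all arrays, two-sided, with Benjamini-Hochberg adjustment over 9294 genes. The median SE of a difference in response was 0.15, so the number of arrays limits the precision. The fit was also run on simulated data, with genes drawn independently and no drug or shRNA effect except the added differences. That check does not cover how the calls depended on the processing. Same-numbered arrays deviated with r from -0.018 to 0.055. Members and lists were chosen with earlier results of these data known. Named genes were those that passed, the 12 smallest p in each direction at a difference of at least log2 1, a fixed set, the 12 largest rises and 8 largest falls with intervals within -1 to 1, and leading list members. Fasn, Srebf1, Dgat1 and others outside it were named after their values were seen.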

Additional observations from a re-analysis of the deposited data

Results flagged for a closer look

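The rosiglitazone response differed between the shRNAs, by the test of the difference itself, for Ucp1 (log2 -3.46), Cidea (-2.90), Lama5 (-2.38), Arhgap20 (-1.54) and Dgat2 (1.30), each as sh-PRDM16 minus sh-scr.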

How the results depend on the processing

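The 5 genes kept the sign of their difference in every setting in which they were tested, but the number of genes that passed moved from 5. It was 70 on the deposited scale, 128 with 50% of genes left out (where Cidea, Lama5 and Arhgap20 were not tested), 115 with a pseudocount of 64, 230 with a trended prior and 1 with the mean of all probe sets. It was 0 with no filter (1536 at an unadjusted p under 0.05), 0 with a pseudocount of 1 (1160) and 0 over every probe set (2672). With the replicate number as a block 1 gene passed, Cidea, and the numbers are not shown to pair the arrays. Leaving out each array gave 0 to 3. Among genes that passed for the mean response, 47 passed for the difference on the deposited scale, 0 with no filter, 102 with 50% left out, 0 with a pseudocount of 1, 84 with 64, 1 with the mean of probe sets, 0 over every probe set, 186 with the trended prior, 1 with the block and 0 to 3 without 1 array. On the deposited scale 1054 of them had an unadjusted p under 0.05, against 691. With quantile normalization the medians of the thermogenic, PPAR target, fatty acid oxidation, lipogenesis, lipid droplet and general adipocyte lists kept their side of the median of all genes. The other scalings shift the difference of all genes alike, so they could not change that side. The deposited scale shifted all genes by log2 0.31. The cause of the changes in the number of genes that passed was not tested. Of the single-gene values, 2572 kept direction and side of the threshold, 126 newly passed, 60 no longer passed and 83, from 36 of 153 genes, changed sign, of which 0 passed in either setting. On the deposited scale the changed values were Cox7a1 0.033, Lep 0.043, Car4 0.053, Aadac 0.022, Ehhadh 0.023, Saa1 0.28, Ppargc1b 0.24, Isg20 0.14, Dnajb9 0.058, Sdha 0.091, Tbp 0.10, Tfrc 0.23, Lyz2 0.075, Lyz1 0.0016, Myh11 0.23 and Fap 0.20. With quantile normalization the changed value was Saa1 0.052. With centring on the tested genes the changed values were Fgf21 -0.028, Fabp4 -0.014, Saa2 -0.019 and Hprt -0.025. With a pseudocount of 1 the changed values were Fabp4 -0.015, Aadac 0.39, Ehhadh 0.13, Saa1 0.042, Saa4 -0.11, Saa2 -0.0026 and Hprt -0.026. With a pseudocount of 64 the changed values were Fabp3 -0.10, Fgf21 -0.013, Lep 0.49, Acacb -0.53, Cmbl -0.030 and Aqp7 -0.073. With the mean of probe sets the changed values were Saa1 0.027, Mdh1 -0.092, Pdia4 -0.53, Bub1 -0.046, Lyz1 0.088 and Myh1 -0.051. Without 1 array the ranges that crossed 0 were Aqp7 -0.11 to 0.29, C1qa -1.03 to 0.22, Ccnd1 -0.018 to 0.21, Cdkn1c -0.081 to 0.35, Cmbl -0.021 to 0.11, Cp -0.053 to 0.26, Cxcl10 -2.14 to 0.12, Fabp3 -0.20 to 0.31, Fabp4 -0.075 to 0.12, Fap -0.22 to 0.0086, Fgf21 -0.29 to 0.31, Hprt -0.023 to 0.050, Isg20 -0.34 to 0.0006, Msln -0.13 to 0.53, Myh1 -0.15 to 0.43, Myh11 -0.53 to 0.37, Oasl1 -1.56 to 0.050, Ppargc1b -0.20 to 0.059, Saa1 -0.38 to 0.31, Saa2 -0.28 to 0.32 and Saa4 -0.12 to 0.22. Dim genes near the floor limit what can be read from their responses.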
